A study of Bos taurus with 61 samples.

Results

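The longissimus dorsi, the long muscle of the back, was compared between POST and PRE puberty heifers over every gene whose mean RPKM, a read density scaled for exon length and library size, reached 0.2 in either stage. This rule kept 13300 of the 24616 genes listed. POST heifers had passed puberty and were sampled in the luteal phase of the cycle, and PRE heifers had not reached puberty. All were Brangus, a composite of 3/8 Brahman and 5/8 Angus, and the muscle of each stage was sequenced as 4 libraries, 1 from each of 4 heifers. The POST heifers were other animals than the PRE heifers and were slaughtered months later, older and heavier, so puberty, age, weight and date of sampling cannot be told apart. Each value is a mean that the authors took across 4 libraries. No value of a single library was analysed here, so no difference below has a replicate check, an error or a p-value, and a mean may rest on 1 animal.

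Skeletal muscle is built of long multinucleate fibres whose sarcomeres slide myosin over actin. Fast fibres and slow fibres use different forms of myosin, troponin and the calcium pump. A piece of muscle also holds capillaries and small arteries, the arteries being wrapped in smooth muscle cells, along with nerve, connective tissue and fat cells between the fibres, the marbling fat of beef. Bulk RNA from such a piece is a sum over all of these cells, and fewer cells of a type and less RNA per cell cannot be told apart in it.

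The libraries were those of skeletal muscle. The summed mean unique reads were 23281851.25 in POST and 22780214.25 in PRE muscle. Skeletal alpha actin (ACTA1), the thin filament of the fibre, was the most abundant of the fibre genes, at 19080 RPKM in POST and 23673 RPKM in PRE muscle. The 50 fibre genes of the fast, slow and shared lists together made up 28.4% of the summed RPKM in POST and 29.8% in PRE muscle. The 20 most abundant genes held 34.6% of the summed RPKM in POST and 36.0% in PRE muscle.

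Genes of the muscle fibre stood at nearly the same level in POST and PRE muscle. Among the gene lists, the most large differences lay in those of other cells of the tissue. Smooth muscle genes were higher in POST muscle, among them MYH11 and ACTA2. Adipocyte genes were lower in POST muscle, among them CIDEC, PLIN1 and ADIPOQ. A gene was counted as changed when log2(RPKM + 0.2) differed by at least 4-fold between POST and PRE muscle, a rule of size and not a test, and differences are given as POST minus PRE on that log2 scale. By this rule 66 genes rose (0.496% of those compared) and 31 fell (0.233%). Only 18 of the 66 and 10 of the 31 belonged to any gene list, so most were assigned to no cell type. At a 2-fold rule the counts were 268 higher (2.02%) and 202 lower (1.52%). The median difference over all genes compared was 0.05, with the 5th and 95th percentiles at -0.59 and 0.62. Among the 502 genes that reached 100 RPKM in either stage, 92.4% lay within 1.5-fold, 10 rose and 1 fell.

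**Figure D1:**
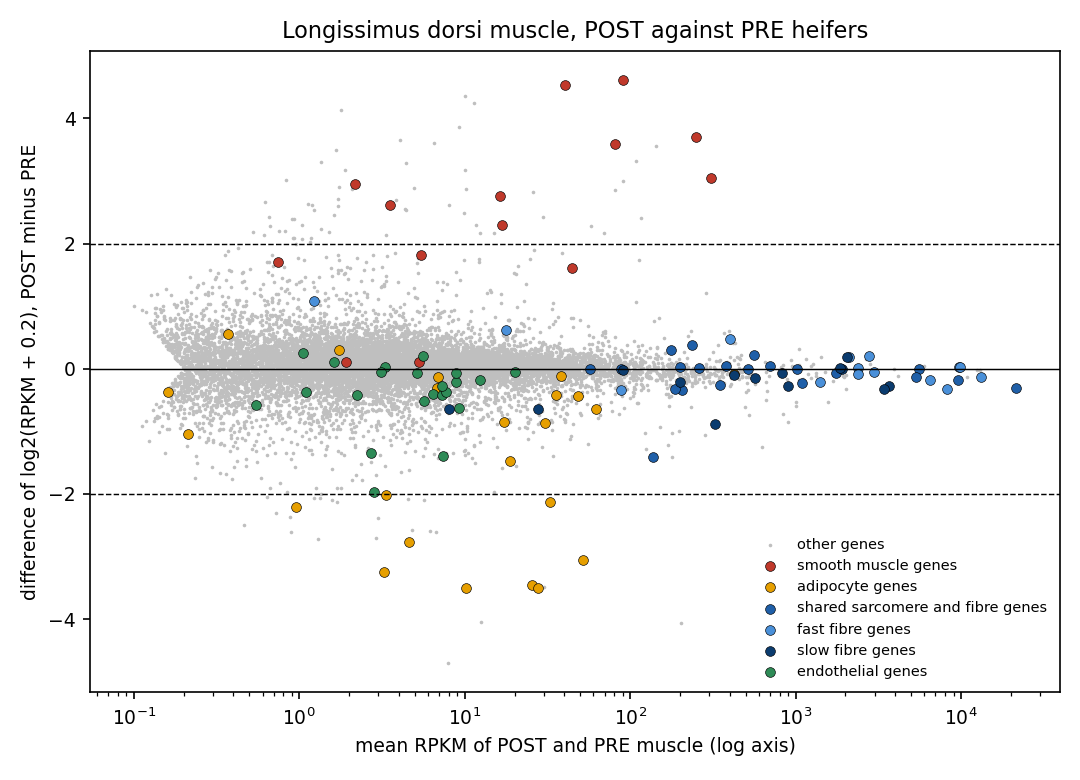
Difference between POST and PRE muscle (vertical axis, log2(RPKM + 0.2), POST minus PRE) against the mean RPKM of both stages (horizontal log axis) for the 13300 genes compared, with gene lists in colour and dashed lines at the 4-fold rule. Smooth muscle genes reach 4.61 above the zero line, adipocyte genes reach -3.50, and most of the abundant fibre genes at the right lie close to it.

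The 3 fibre lists hold the contractile machinery. No gene of the 15 fast, 14 slow or 21 shared fibre genes compared passed the 4-fold rule in either direction, a share close to the background, and their median differences were 0.02, -0.19 and 0.00 (-0.0029), beside 0.05 for all genes. MYH1, the myosin heavy chain of fast type IIx fibres, was at 9755 RPKM in POST and 9578 RPKM in PRE muscle. MYH2, the heavy chain of fast type IIa fibres, was at 2963 RPKM in POST and 2576 RPKM in PRE muscle. MYH7, the slow heavy chain, was at 1915 RPKM in POST and 1916 RPKM in PRE muscle. Of the summed RPKM of these heavy chains, MYH1 made up 66.7% in POST and 68.1% in PRE muscle, and MYH7 made up 13.1% in POST and 13.6% in PRE muscle. Heavy chain genes are close copies of each other, so part of their reads may have been shared between them in the counting.

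Titin (TTN), the spring that runs from the edge to the middle of the sarcomere, was at 269 RPKM in POST and 206 RPKM in PRE muscle. Nebulin (NEB), which lies along the thin filament, was at 599 RPKM in POST and 516 RPKM in PRE muscle. Creatine kinase (CKM) was at 8954 RPKM in POST and 10160 RPKM in PRE muscle, and myoglobin (MB), which stores oxygen, was at 5135 RPKM in POST and 5605 RPKM in PRE muscle. Each of these differences lay between the 5th and 95th percentiles of all genes. Among the fast genes MYBPC2, a myosin-binding protein, was at 2233 RPKM in POST and 1960 RPKM in PRE muscle, MYLK2, the skeletal myosin light chain kinase, at 467 RPKM in POST and 335 RPKM in PRE muscle, and MYH4, the heavy chain of type IIb fibres, at only 21.5 RPKM in POST and 13.9 RPKM in PRE muscle. The calcium buffer parvalbumin (PVALB) was 2-fold apart but low, at 1.73 RPKM in POST and 0.712 RPKM in PRE muscle.

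Slow fibre genes leaned lower in POST muscle without passing the rule: 12 of 14 had a negative difference. The largest was that of MYL3, the light chain of slow and ventricular myosin, at 228 RPKM in POST and 421 RPKM in PRE muscle. MYH7B followed at 21.6 RPKM in POST and 34.0 RPKM in PRE muscle, and CASQ2, a calcium-binding protein of slow fibre and heart, at 6.198 RPKM in POST and 9.82 RPKM in PRE muscle. The slow troponin I gene TNNI1 was at 814 RPKM in POST and 988 RPKM in PRE muscle, and the regulatory light chain MYL2 at 3303 RPKM in POST and 4017 RPKM in PRE muscle. The slow troponin T gene TNNT1, at 1866 RPKM in POST and 1859 RPKM in PRE muscle, and the slow heavy chain itself were level between the stages.

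A few genes of the fibre stood further apart, without passing the rule. KLHL40 (listed as KBTBD5), which keeps the thin filament proteins stable, was at 75.1 RPKM in POST and 200 RPKM in PRE muscle, a difference of -1.41 and the largest of the shared fibre list. MYBPH, a relative of the myosin-binding proteins, was at 97.4 RPKM in POST and 261 RPKM in PRE muscle, and LMCD1, a LIM protein, at 72.5 RPKM in POST and 176 RPKM in PRE muscle. RCAN1, an inhibitor of the phosphatase calcineurin, was at 80.7 RPKM in POST and 164 RPKM in PRE muscle. In the other direction PPARGC1A, the coactivator that drives mitochondrial gene expression, was at 13.4 RPKM in POST and 4.43 RPKM in PRE muscle, a difference of 1.55. ART1, an ADP-ribosyltransferase of the fibre surface, was at 20.4 RPKM in POST and 8.63 RPKM in PRE muscle. MYBPH, LMCD1, RCAN1 and ART1 were singled out after their values were seen, from the genes with muscle as their highest tissue. Of the 1175 genes with muscle as their highest tissue (8.835% of those compared), 5 rose and 1 fell by the 4-fold rule, with a median difference of 0.02. They made up 7.58% of the genes that rose and 3.23% of those that fell. A gene can enter this set through its POST level alone. RGS5, a pericyte gene, is among the 5, but in PRE heifers it was lower in muscle (19.8 RPKM) than in uterus (68.6 RPKM).

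Genes of the fibre's energy supply lay near the median of all genes. None of 21 glycogen and glycolysis genes, 27 nuclear genes of oxidative phosphorylation and 16 genes of fatty acid oxidation passed the 4-fold rule, a share close to the background, and the medians were -0.05, -0.11 and -0.11. Of the oxidative phosphorylation genes 24 of 27 had a negative difference, the largest being that of COX6A2, the muscle form of a cytochrome oxidase subunit, at 214 RPKM in POST and 260 RPKM (259.808) in PRE muscle. Glycogen phosphorylase (PYGM), which frees glucose from glycogen, was at 2869 RPKM in POST and 2736 RPKM in PRE muscle. PDK4, which closes pyruvate off from the mitochondria, was at 821 RPKM in POST and 1193 RPKM in PRE muscle. Of the breakdown genes GADD45A, a stress-induced gene, differed most, at 22.7 RPKM in POST and 44.8 RPKM (44.75) in PRE muscle. FBXO32 (atrogin-1), a ubiquitin ligase, was at 191 RPKM in POST and 109 RPKM in PRE muscle, and the ligase TRIM63 was at 195 RPKM in POST and 182 RPKM in PRE muscle. Of 12 myogenic regulators none passed the 2-fold rule, a share close to that of all genes compared (2.02% higher and 1.52% lower). Myogenin (MYOG) was at 13.5 RPKM in POST and 11.2 RPKM in PRE muscle, myostatin (MSTN), the brake on muscle growth, at 3.50 RPKM in POST and 4.16 RPKM in PRE muscle, and MYF5, a regulator of satellite cells that the study names among its transcription factors, at 0.785 RPKM in POST and 0.568 RPKM in PRE muscle.

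The coupling of nerve to contraction gave 1 gene past the rule. CHRND, the delta subunit of the acetylcholine receptor, rose to 7.65 RPKM in POST muscle, against 1.15 RPKM in PRE muscle, a difference of 2.54. The alpha subunit CHRNA1 was at 19.974 RPKM in POST and 20.5 RPKM in PRE muscle, and the beta subunit CHRNB1 at 16.6 RPKM in POST and 15.5 RPKM in PRE muscle. COLQ, which anchors acetylcholinesterase at the synapse, went the other way, at 0.270 RPKM in POST and 0.930 RPKM in PRE muscle, short of the 4-fold rule. The calcium release channel RYR1 was at 469 RPKM in POST and 410 RPKM in PRE muscle, and 16 of the 18 excitation and triad genes lay within 2-fold.

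**Figure D2:**
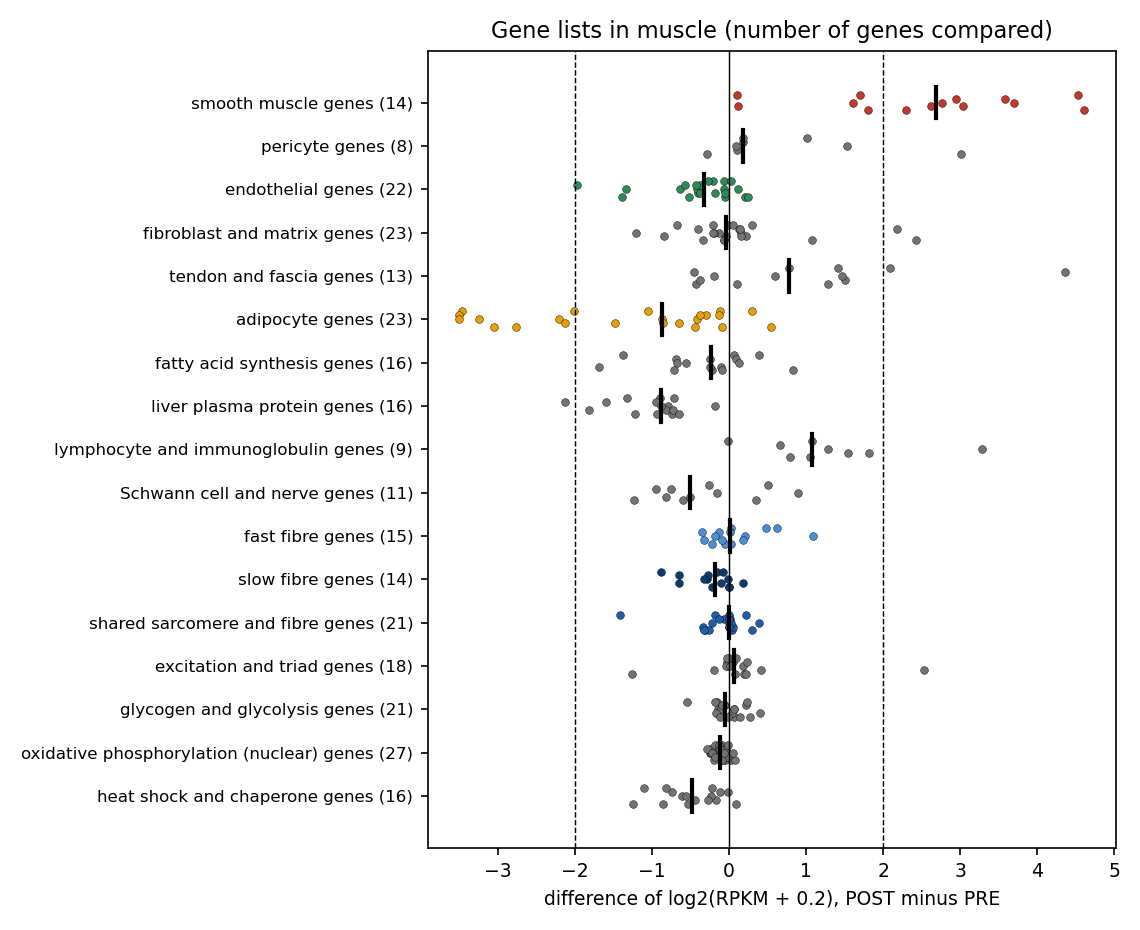
Difference of each list member between POST and PRE muscle (horizontal axis, log2(RPKM + 0.2), POST minus PRE), 1 point per gene, with the list median as a black bar and dashed lines at the 4-fold rule. The smooth muscle median is 2.69 and the adipocyte median -0.87, while the medians of the fast, slow and shared fibre lists lie between -0.19 and 0.02.

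The contractile genes of smooth muscle were the list with the most genes that rose. Of 14 smooth muscle genes compared, 9 rose and none fell, beside 0.496% and 0.233% of all genes compared. All 14 had a positive difference, with a median of 2.69 beside 0.05 for all genes. The list was written with earlier results of these data known. MYH11, the smooth muscle myosin heavy chain (chr25:14218281-14343745, UMD3.1), rose to 174 RPKM in POST muscle, against 6.90 RPKM in PRE muscle, on 18827 and 900.25 mean unique reads. ACTA2, smooth muscle alpha actin (chr26:10662362-10714982), rose to 462 RPKM in POST muscle, against 35.3 RPKM in PRE muscle. ACTG2, the actin of visceral smooth muscle, rose to 77.2 RPKM in POST muscle, against 3.16 RPKM in PRE muscle. Actin genes are near copies, and the study's gene table gives another actin symbol to the identifier listed as ACTG2, so its identity is uncertain.

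The partners of smooth muscle myosin and actin rose with them. Transgelin (TAGLN), which bundles actin, was at 546 RPKM in POST and 66.2 RPKM in PRE muscle. Calponin (CNN1), which restrains the myosin motor, was at 150 RPKM (149.725) in POST and 12.3 RPKM in PRE muscle, a difference of 3.59. The kinase that switches smooth muscle myosin on, MYLK, was at 27.9 RPKM in POST and 5.54 RPKM in PRE muscle. PPP1R14A, which inhibits the opposing phosphatase, was at 28.5 RPKM in POST and 4.02 RPKM in PRE muscle. KCNMB1, the beta subunit of the calcium-gated potassium channel of vessels, was at 6.25 RPKM in POST and 0.849 RPKM in PRE muscle, and the integrin ITGA8 at 4.003 RPKM in POST and 0.343 RPKM in PRE muscle. Caldesmon (CALD1), the regulator RASL12 and the coactivator MYOCD, which turns on smooth muscle genes, had differences of 1.61, 1.81 and 1.70 and did not pass. The subunits of the nitric oxide receptor, GUCY1A3 and GUCY1B3, lay level, with differences of 0.10 and 0.11.

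Other genes that rose most are also abundant in uterus, an organ with much smooth muscle. Destrin (DSTN), which cuts actin filaments, was at 263 RPKM in POST and 22.1 RPKM in PRE muscle. CSRP1, a LIM protein of smooth muscle, was at 142 RPKM in POST and 19.5 RPKM in PRE muscle. An unnamed gene on chromosome X (ENSBTAG00000011190) was at 198 RPKM in POST and 19.7 RPKM in PRE muscle. Of the 66 genes that rose, 20 had uterus as their highest tissue (30.3%, beside 8.72% of all genes compared). In these 20 genes, chosen for being higher in POST muscle, the level in muscle was a median 23.8% of that in uterus in POST heifers and 2.59% in PRE heifers. Over the 14 smooth muscle genes compared the median share was 23.8% in POST and 2.56% in PRE muscle, with ranges from 6.40% to 47.7% in POST and from 0.389% to 26.7% in PRE muscle. MYH11 was at 23.9% of the uterine level in POST muscle and 1.15% in PRE muscle, and ACTA2 at 24.9% in POST and 2.38% in PRE muscle. Uterus was not equal between the stages itself: the median difference of these 20 genes in uterus was 0.42.

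**Figure D3:**
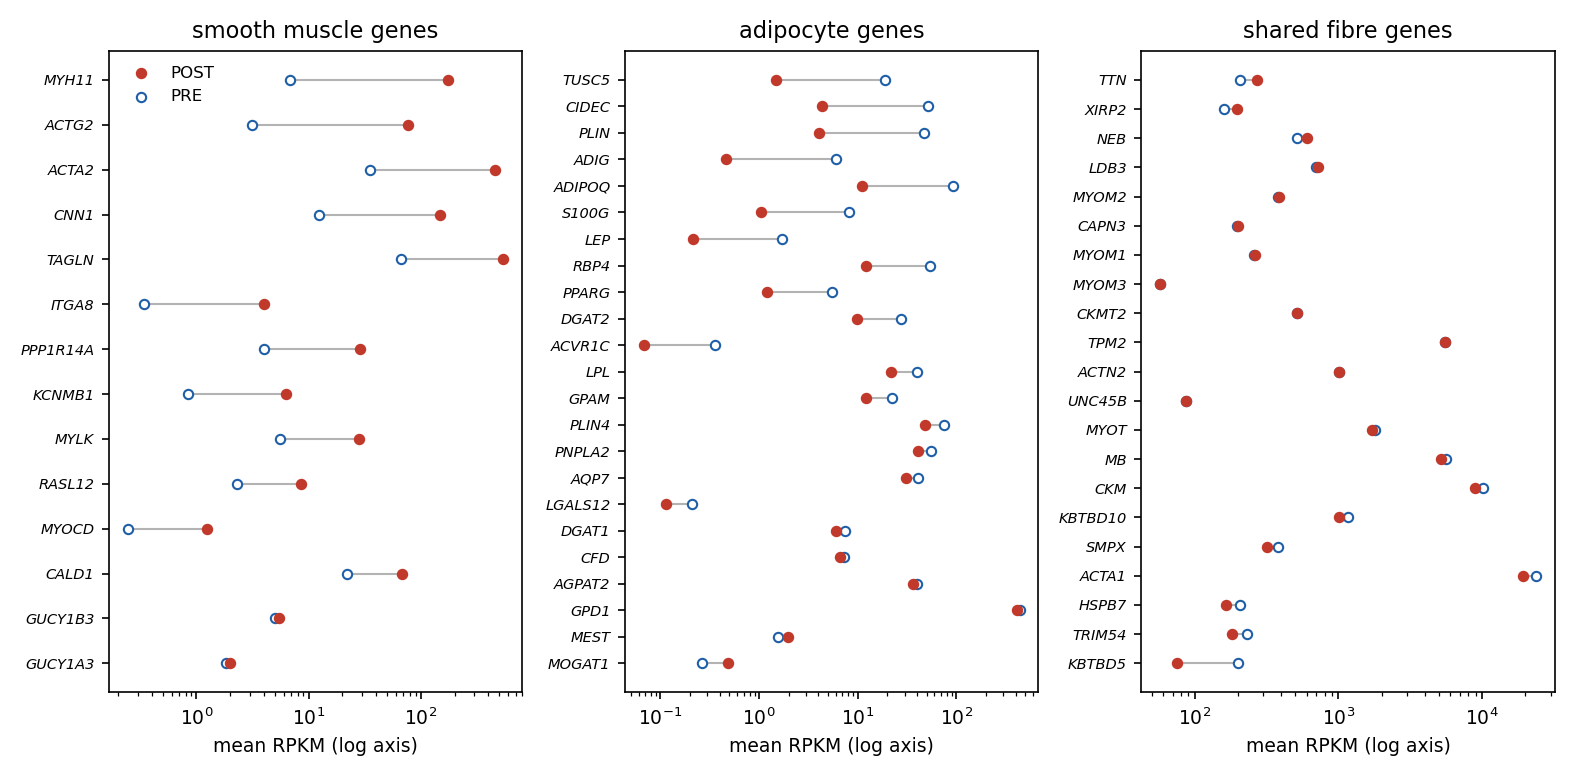
Mean RPKM (log axis) in POST (filled red) and PRE (open blue) muscle for each smooth muscle, adipocyte and shared fibre gene compared, ordered by the difference within each panel. MYH11 lies at 174 in POST and 6.90 in PRE muscle, CIDEC at 4.33 in POST and 51.1 in PRE muscle, and most fibre genes have overlapping symbols.

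Genes of the endothelium, which lines the vessels, did not follow those of smooth muscle. Of 22 endothelial genes compared none passed the 4-fold rule, a share close to the background. Their median was -0.32, with 18 below 0. PECAM1, an adhesion molecule of all endothelium, was at 19.8 RPKM in POST and 20.5 RPKM in PRE muscle. CDH5, the cadherin of endothelial junctions, was at 8.20 RPKM in POST and 9.52 RPKM in PRE muscle, VWF, the clotting factor carrier, at 7.15 RPKM in POST and 11.2 RPKM in PRE muscle, and FLT1, a receptor for vascular growth factor, at 5.48 RPKM in POST and 7.31 RPKM in PRE muscle. The members that differed most were DARC, PLVAP and LYVE1. DARC, a chemokine receptor of venules, was at 1.03 RPKM in POST and 4.63 RPKM in PRE muscle, a difference of -1.97 that just missed the rule. PLVAP, a protein of vessel pores, was at 1.44 RPKM in POST and 3.97 RPKM in PRE muscle, and LYVE1 of lymph vessels was at 3.997 RPKM in POST and 10.8 RPKM in PRE muscle. PROX1, the regulator of lymphatic identity, was at 1.70 RPKM in POST and 1.55 RPKM in PRE muscle.

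Pericytes are the contractile cells of capillaries and share many genes with arterial smooth muscle. Of 8 pericyte genes 1 rose, RGS5, a brake on G-protein signals, which reached 160 RPKM in POST muscle, against 19.8 RPKM in PRE muscle. NOTCH3, at 7.84 RPKM in POST and 2.59 RPKM in PRE muscle, and CSPG4, at 4.76 RPKM in POST and 2.27 RPKM in PRE muscle, lay 2-fold apart. ABCC9, a subunit of the potassium channel of capillary pericytes, was at 11.6 RPKM in POST and 10.8 RPKM in PRE muscle, and MCAM was at 33.4 RPKM in POST and 31.3 RPKM in PRE muscle. The list median was 0.18.

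Matrix genes were divided. The main collagens of connective tissue were level: COL1A1 was at 114 RPKM in POST and 144 RPKM in PRE muscle, and COL3A1 at 240 RPKM (239.815) in POST and 241 RPKM in PRE muscle. Elastin (ELN), the rubber-like protein of artery walls, rose to 114 RPKM in POST muscle, against 25.1 RPKM in PRE muscle. Biglycan (BGN), a small proteoglycan, rose to 50.2 RPKM in POST muscle, against 9.15 RPKM in PRE muscle. These were the only genes of 23 fibroblast and matrix genes compared to pass the rule, and the list median was -0.04. FBLN1, a fibulin of elastic fibres, was at 31.0 RPKM in POST and 14.6 RPKM in PRE muscle, whereas MFAP5, a microfibril protein, was at 33.4 RPKM in POST and 77.6 RPKM in PRE muscle.

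Tenascin C (TNC), a matrix glycoprotein of tendon junctions and of vessel walls, had the third largest difference of the named genes that rose, at 19.3 RPKM in POST and 0.753 RPKM in PRE muscle. Of 13 tendon and fascia genes TNC and COMP, a cartilage and tendon matrix protein, passed the rule, COMP at 1.62 RPKM in POST and 0.226 RPKM in PRE muscle. FMOD, which shapes collagen fibrils, was at 30.5 RPKM in POST and 10.6 RPKM in PRE muscle, and ASPN was at 13.7 RPKM in POST and 5.02 RPKM in PRE muscle. Collagen XIV (COL14A1) was at 10.1 RPKM in POST and 13.9 RPKM in PRE muscle. The list median was 0.78. CTGF, a growth factor of connective tissue and a target of mechanical stretch, rose to 96.7 RPKM in POST muscle, against 19.8 RPKM in PRE muscle.

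Some of the genes with the largest rise belonged to none of the lists. KCNAB1, a potassium channel subunit, was at 7.71 RPKM in POST and 0.431 RPKM in PRE muscle, on 864 and 132.5 mean unique reads. Its log2 of reads per RPKM differed by -1.47 between the stages, so its fold was smaller on reads. SLC6A17, a transporter of synaptic vesicles, was at 2.62 RPKM in POST and 0.0860 RPKM in PRE muscle, and PDZRN4 was at 3.55 RPKM in POST and 0.0140 RPKM in PRE muscle, where it rested on 0.75 mean unique reads. The model listed as SORBS2 was at 21.8 RPKM in POST and 0.964 RPKM in PRE muscle, but rested on 66 and 3.25 mean unique reads. Hypothalamus was the highest tissue of 19 of the 66 genes that rose (28.8%, beside 18.9% of all genes compared). Of the Schwann cell and nerve genes none of 11 passed the rule, a share close to the background, and the list median was -0.51.

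Adipocyte genes were the list with the most genes that fell. Of 23 compared, 9 fell and none rose, beside 0.233% and 0.496% of all genes compared. A negative difference was found in 21, with a median of -0.87 beside 0.05 for all genes. Among the proteins that coat the fat droplet, CIDEC (chr22:16909073-16918353, UMD3.1), which fuses droplets, fell to 4.33 RPKM in POST muscle, against 51.1 RPKM in PRE muscle. Perilipin 1 (PLIN1, listed as PLIN), which guards the droplet against lipase, fell to 4.09 RPKM in POST muscle, against 47.0 RPKM in PRE muscle. G0S2, an inhibitor of that lipase, fell to 1.48 RPKM in POST muscle, against 18.6 RPKM in PRE muscle. PLIN4, a perilipin that muscle fibres also make, was at 48.3 RPKM in POST and 75.7 RPKM in PRE muscle and did not pass.

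Hormones and regulators of the adipocyte fell as well, with CFD as an exception. Adiponectin (ADIPOQ) was at 11.1 RPKM in POST and 93.1 RPKM in PRE muscle, on 753 and 6267 mean unique reads. Leptin (LEP), the satiety hormone whose level follows fat mass, was low in both stages, at 0.213 RPKM in POST and 1.71 RPKM in PRE muscle. RBP4, the retinol carrier, was at 12.1 RPKM in POST and 53.6 RPKM in PRE muscle. Complement factor D (CFD, adipsin) was at 6.59 RPKM in POST and 7.203 RPKM in PRE muscle. PPARG, the master regulator of the fat cell, was at 1.21 RPKM in POST and 5.46 RPKM in PRE muscle, a difference of -2.01 that only just passed the rule. TUSC5, which takes part in glucose transport in fat, was at 1.49 RPKM in POST and 18.973 RPKM in PRE muscle, ADIG (adipogenin) at 0.461 RPKM in POST and 6.07 RPKM in PRE muscle, and S100G, a calcium-binding protein, at 1.04 RPKM in POST and 8.20 RPKM in PRE muscle.

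Some enzymes of fat storage differed less, and whether fibres hold part of their RNA was not tested. MOGAT1, a low gene of the list, went the other way, at 0.480 RPKM in POST and 0.264 RPKM in PRE muscle. DGAT2, the last enzyme of triglyceride synthesis, was at 9.85 RPKM in POST and 27.8 RPKM in PRE muscle. Lipoprotein lipase (LPL) was at 21.6 RPKM in POST and 39.6 RPKM in PRE muscle, and the lipase PNPLA2 at 41.0 RPKM in POST and 55.5 RPKM in PRE muscle. GPD1, which supplies the glycerol backbone and is abundant in fibres, was at 414 RPKM in POST and 440 RPKM (439.928) in PRE muscle. None of 16 fatty acid synthesis genes passed the rule, a share close to the background, and their median was -0.24. Fatty acid synthase (FASN) was at 3.56 RPKM in POST and 4.19 RPKM in PRE muscle, and its activator THRSP had the largest difference, at 1.28 RPKM in POST and 4.57 RPKM in PRE muscle.

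Of the 31 genes that fell, 19 had adipose tissue as their highest tissue (61.3%, beside 13.5% of all genes compared). The largest of these by level was an unnamed gene on chromosome 14 (ENSBTAG00000037526), at 22.7 RPKM in POST and 381 RPKM in PRE muscle. Set against the adipose tissue of the same stage, the 19 genes stood in muscle at a median 0.310% (0.3099) of the adipose level in POST heifers and 3.49% in PRE heifers. The rule chose these genes for being lower in POST muscle, so the gap between the shares restates the rule. They ranged from 0% to 3.17% in POST and from 0.945% to 17.3% in PRE muscle, with SLPI listed at 0 in POST muscle. The 23 adipocyte genes compared were listed with earlier results of these data known, and 9 of them fell by this rule. Their median share was 1.16% in POST and 4.47% in PRE muscle. Those shares ranged widely, from 0.153% to 193% in POST and from 2.11% to 2031% in PRE muscle. The adipose samples are headed as subcutaneous fat, while the study's methods describe fat of the abdominal cavity. ADIPOQ was at 0.325% in POST and 3.38% in PRE muscle, CIDEC at 0.281% in POST and 3.09% in PRE muscle, and LEP at 0.467% in POST and 3.65% in PRE muscle. In adipose tissue itself the 19 genes had a median difference of -0.04, and 1 of them was 4-fold apart.

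**Figure D4:**
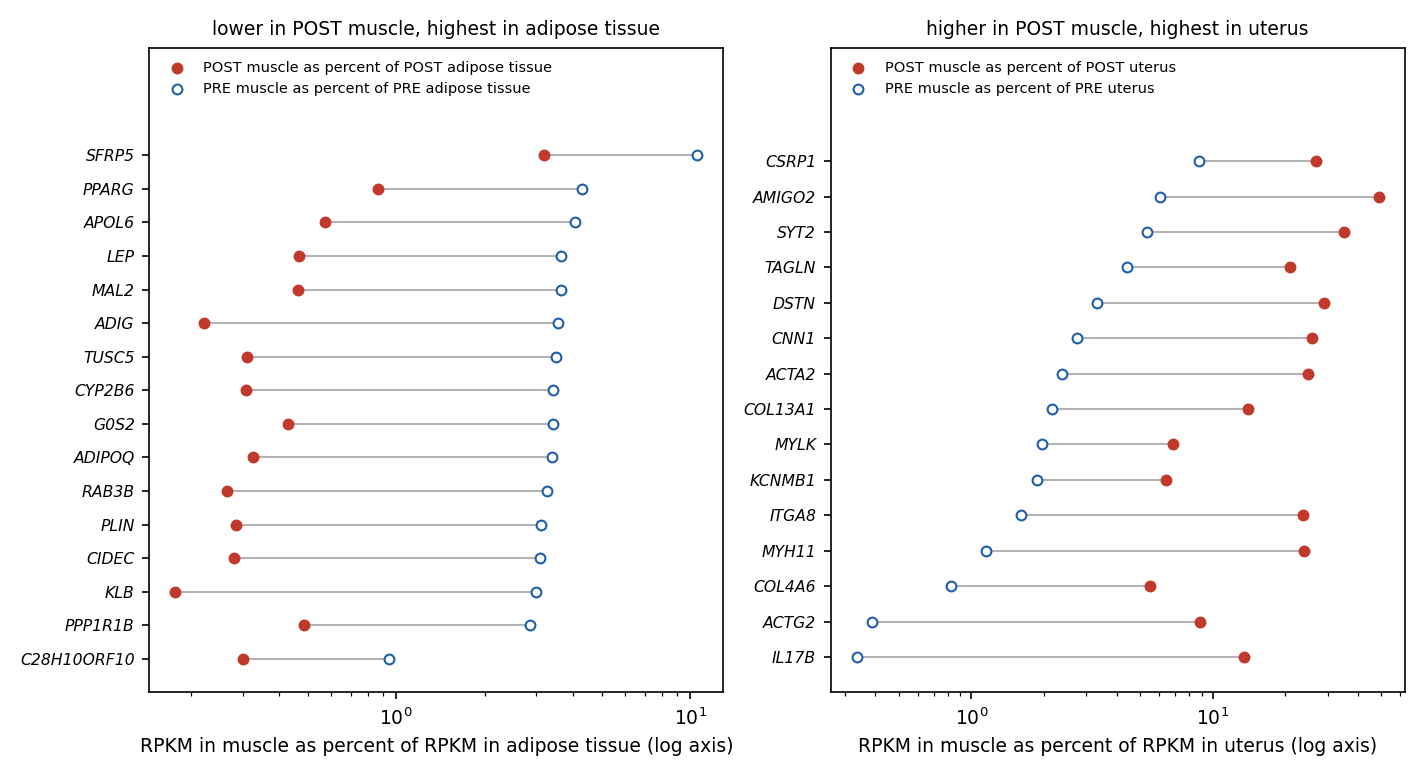
RPKM in muscle as a percent of the RPKM of adipose tissue (left) or uterus (right) of the same stage, on a log axis, for the genes with a symbol past the 4-fold rule whose highest tissue is the one named, with POST muscle in filled red and PRE muscle in open blue. SLPI, at 0 RPKM in POST muscle, is left out of the left panel, where the medians over all 19 genes are 0.310% (0.3099) in POST and 3.49% in PRE muscle, while the right panel spreads widely in both stages.

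Other genes that fell were not all highest in adipose tissue. SNCG (gamma-synuclein), made by neurons and by fat cells, was at 0.196 RPKM in POST and 2.40 RPKM in PRE muscle. ACSM1, a mitochondrial acyl-CoA synthetase highest in liver, was at 1.76 RPKM in POST and 11.7 RPKM in PRE muscle, with 311 RPKM in POST and 244 RPKM in PRE adipose tissue. Neuronatin (NNAT), an imprinted gene of brain, pituitary and fat, had the largest difference of the named genes that fell, at 1.24 RPKM in POST and 23.8 RPKM in PRE muscle, with 240 RPKM (240.013) in POST and 496 RPKM in PRE adipose tissue. SFRP5, a secreted Wnt inhibitor with adipose tissue as its highest tissue, was at 1.60 RPKM in POST and 7.45 RPKM in PRE muscle.

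Across tissues the groups did not move together. The median difference of the smooth muscle list was 2.69 in muscle, 0.30 in uterus, -0.04 in adipose tissue and -3.35 in endometrium, and that of the adipocyte list was -0.87 in muscle and 0.26 in adipose tissue. The tissues come from the same heifers, so these values are not independent of each other, and the differences between tissues were not tested. Plasma proteins made by liver were also listed in muscle. All 16 plasma protein genes of liver that were compared were lower in POST muscle, 1 of them past the rule (RBP4, which fat also makes), with a median of -0.89. Albumin (ALB) was at 15.8 RPKM in POST and 30.4 RPKM in PRE muscle, which is 0.0407% of the liver level in POST and 0.0953% in PRE heifers. Over the 16 genes the median share of the liver level was 0.0512% in POST and 0.0981% in PRE muscle. Their part in the adipocyte and smooth muscle results was not tested.

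The 2 deposited measures of a gene can differ between the stages. Unique reads also fall outside exons, and RPKM does not count those. Where libraries differ in depth, the ratio of the 2 means also depends on which libraries hold the reads. In 9659 genes with at least 100 mean unique reads in both stages, the log2 of reads per RPKM moved by between -0.15 (5th percentile) and 0.13 (95th percentile) about the median gene. Of the 27 such genes that rose, 25 lay below that 5th percentile, with a median of -0.28, and of the 8 such genes that fell none did, with a median of 0.00 (0.0035). The smooth muscle genes had a median of -0.24 and the shared fibre genes 0.02. Relative to POST muscle the smooth muscle genes had 0.24 more in PRE muscle and 0.11 more in POST uterus. What this difference comes from was not tested. On read counts alone, as CPM (reads scaled to the sum of the library), 63 genes rose, of which 55 were among the 66, and 39 fell, of which 26 were among the 31.

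Other genes that the study names were also looked up. For this muscle the study reports OXT as down-regulated and RPL39 as up-regulated at puberty. Its calls came from a mixture model and not from a rule of size. OXT, the oxytocin precursor, was at 0.0860 RPKM in POST and 0.410 RPKM in PRE muscle, on 1.25 and 5 mean unique reads, too few to carry a difference. TECRL, an enoyl-CoA reductase relative of striated muscle, was at 3.04 RPKM in POST and 3.78 RPKM in PRE muscle. Of 4 gene models named for the ribosomal protein RPL39, the most abundant was at 556 RPKM in POST and 609 RPKM in PRE muscle, and none passed the rule. The RPL39 model on chromosome X had 0.5 mean unique reads in each stage and was not compared.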

How the data were processed

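RNA of longissimus dorsi muscle was sequenced from 4 POST and 4 PRE heifers. CLC Genomics Workbench and the UMD3.1 assembly were used by the authors, who deposited a mean count of unique reads and a mean RPKM for 24616 genes in each tissue and stage. RPKM also holds reads that are not unique, since 139 genes in POST and 148 in PRE muscle had an RPKM above 0 without a unique read, and unique reads reach outside exons, since 320 genes in POST and 324 in PRE muscle had an RPKM of 0 with at least 10 mean unique reads. CPM is the mean read count scaled to its sum.

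The difference of a gene is log2(RPKM + 0.2) in POST less that in PRE muscle, and a gene was called at 4-fold. Tests for counts were not used, since only means were analysed. The members and the 34 gene lists were chosen with earlier results of these data known. Of 683 list entries 518 were matched, by the symbols listed with the values, the study's gene table, entry names that equal a RefSeq symbol (ARS-UCD2.0 assembly) on the same chromosome, and 135 entry names paired by hand. A member with several gene models took the most expressed one. The highest tissue of a gene is that with the highest mean RPKM over both stages.

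Genes named are the 10 with symbols and the largest differences past the rule in each direction with at least 1 CPM, in each list up to 4 members that differed most, members counted where 5 or fewer, the first members written of the main lists, and genes the study names. Others were added for their role after their values were seen. Depth limits low genes: a mean near 1 RPKM rests on few reads. Alternatives were other amounts added, CPM, other minima, a 2-fold rule, and rescaling. Python 3.11.15, numpy 2.4.6, pandas 2.3.3 and matplotlib 3.10.9 were used, and the counting was tested on simulated data.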

Additional observations from a re-analysis of the deposited data

How the results depend on the processing

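The study describes values of single samples, which were not analysed here, so leaving out each heifer could not be run and a single animal may carry any mean. No paired analysis was possible because the POST and PRE heifers were different animals. Single libraries were not analysed here, and the result comes from no test. The counts depended on the amount added to RPKM. With 1 added, 33 genes rose and 15 fell, and with 0.05 added 101 rose and 53 fell. A 2-fold rule gave 268 higher and 202 lower genes. CPM, a minimum of 1 RPKM, no minimum, both scalings and a minimum of 10 reads left 63 to 67 genes higher and 30 to 39 lower. The list medians ranged from 2.06 to 2.81 for smooth muscle, from -1.17 to -0.82 for adipocytes, and from -0.36 to -0.24 for endothelium. The shared fibre median was -0.0029, -0.07 on CPM, and 0.02 (0.0228) with RPKM rescaled without the 20 most abundant genes and the mitochondrial genome. Both scalings shifted all genes by under 0.1. Unmatched members, among them FABP4 and FLNA, limit the lists. They may be among the genes without a symbol: of all genes listed, 3888 carried only an entry accession and 4600 no name.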

Other observations

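Stress genes were lower in POST muscle without passing the 4-fold rule. Of 16 heat shock and chaperone genes 15 had a negative difference, with a median of -0.48 beside 0.05 for all genes. HSPA1A, the inducible HSP70, was at 371 RPKM in POST and 881 RPKM in PRE muscle, and its partner HSPH1 at 9.38 RPKM in POST and 20.5 RPKM in PRE muscle. The small heat shock protein CRYAB, which protects the sarcomere, was at 1277 RPKM in POST and 1840 RPKM (1840.42) in PRE muscle. Immediate early genes, the first to answer a stimulus, had a median of -0.48. CTGF was the only gene of 16 past the rule. Among the others MYC was at 5.73 RPKM in POST and 14.4 RPKM in PRE muscle, ATF3 at 65.0 RPKM in POST and 107 RPKM in PRE muscle, and NR4A3 at 12.4 RPKM in POST and 5.36 RPKM in PRE muscle.

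Lymphocyte genes leaned the other way. Of 9 compared, 6 were at least 2-fold higher in POST muscle, beside 2.02% of all genes compared, and the median was 1.08. Some of the 6 rest on few reads. CD3G had 22.5 mean unique reads in POST and 4.75 in PRE muscle, and CCL5 had 27 in POST and 5 in PRE muscle. IGLL1, an immunoglobulin lambda-like chain, passed the 4-fold rule at 8.15 RPKM in POST and 0.660 RPKM in PRE muscle, although its reads per RPKM differed by -1.65 between the stages. The T cell gene CD3E was at 2.35 RPKM in POST and 0.842 RPKM in PRE muscle, and PTPRC, carried by all white blood cells, at 2.81 RPKM in POST and 1.26 RPKM in PRE muscle. Macrophage genes had a median of -0.18, with C1QA at 12.9 RPKM in POST and 17.8 RPKM in PRE muscle. Of 13 clock genes none passed the 2-fold rule, nor did any of 16 growth hormone and IGF axis genes. Both shares are close to that of all genes compared (2.02% higher and 1.52% lower). IGF2 had 28.0 RPKM in POST and 40.2 RPKM in PRE muscle. An unnamed gene on chromosome X (ENSBTAG00000047547) had the largest fall of all genes, to 0.396 RPKM in POST, against 15.4 RPKM in PRE muscle, and lay at 2.27 RPKM in POST and 80.4 RPKM in PRE uterus.

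Of 9 embryonic and regenerating fibre genes CKB, the creatine kinase of brain and smooth muscle, rose to 20.5 RPKM in POST muscle, against 4.40 RPKM in PRE muscle, and NNAT fell, with a list median of -0.13. Of 9 muscle-secreted signals only CTGF passed the rule, with a list median of -0.14. No gene of the remaining lists passed it, a share close to the background. The medians were 0.12 for 12 dystrophin complex genes, -0.38 for 6 glucose and lactate transport genes and 0.21 for 2 red blood cell genes. They were -0.19 for 8 steroid receptor genes and glucocorticoid targets, -0.19 for 15 interferon-stimulated genes and 0.13 for 15 cell cycle genes. For 23 ribosomal protein genes the median was -0.09 (-0.0850), and for 9 genes of the mitochondrial genome 0.17. Of the mitochondrial genes compared, all but ND6 had 0 mean unique reads in both stages, so their RPKM rests on reads that are not unique. The clock, growth hormone, breakdown and myogenic medians were 0.37 (0.3650), 0.10 (0.0997), 0.07 and -0.04.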
